A study of Mus musculus with 6 samples.

Results

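Lipid-associated microglia were followed here as a rare state of the brain's resident macrophages, seen in sorted immune cells of healthy mouse brain and of mouse glioma. They were chosen by counts of unique molecular identifiers (UMIs, each standing for 1 captured RNA molecule) in single barcodes. A barcode counted as microglia when 6 microglial genes (Tmem119, Olfml3, Gpr34, Crybb1, Golm1, Slc2a5) gave at least 3 UMIs and more than 10 genes of border and monocyte-derived macrophages together, with at most 1 UMI of 6 lymphoid genes. A microglial barcode was a member when at least 3 of the 6 genes Spp1, Apoc1, Lpl, Fam20c, Gdf15 and Gas2l3 were detected and fewer than 3 of the 5 activation genes Csf1, Egr3, Tnf, Il1a and Hcar2. This gave 187 members among 9877 microglial barcodes and 17362 barcodes in all, beside 1114 activated microglia, which had at least 3 of the 5 activation genes, and 8576 other microglia. The 33 genes of the rule chose the cells, so their levels are given as a description and were left out of every test.

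The libraries were 3' end single-cell RNA libraries of CD45+ cells, CD45 being the surface protein that marks immune cells. There were 2 libraries of each of 3 groups: tumours deleted for Trp53 and Rbpj (drawn from 9 tumours), control tumours deleted for Trp53 with wild-type Rbpj (drawn from 15 tumours), and healthy brains with both genes wild type (drawn from 9 brains). Rbpj is the transcription factor through which Notch receptors act, and Trp53 encodes p53. The tumours were early-stage gliomas with a Cre-dependent GFP reporter by which they were found. The driver of Cre, the strain, the age and the sex were not stated. The labels speak both of pooled tissue and of 1 well per mouse without tying animals to libraries, so p-values below measure the spread between these libraries. The Rbpj-deleted libraries held 1242 and 624 microglia, the control tumour libraries 289 and 246, and the healthy libraries 5524 and 1952. Of all barcodes 413 had a sequence that occurs in a second library, and 1 of these was a member. Total UMIs per library ran between 17430763 and 55229031.

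Microglia keep a steady programme of surface receptors and transcription factors in the healthy brain. Around plaques, damaged myelin and tumours, a part of them takes up lipid and debris, lowers that programme and makes proteins of lipid transport, lysosomes and matrix. Spp1 encodes osteopontin, a secreted matrix phosphoprotein. Apoc1 is a small apolipoprotein of lipoprotein particles, Lpl is lipoprotein lipase, which frees fatty acids from triglycerides, Fam20c is the secretory-pathway kinase that phosphorylates osteopontin among other secreted proteins, Gdf15 is a stress-induced cytokine and Gas2l3 links actin and microtubules. In the GRCm38 annotation Spp1 lies at chr5:104435118-104441050, Apoc1 at chr7:19689481-19692660, Lpl at chr8:68880491-68907448, Fam20c at chr5:138754514-138810077, Gdf15 at chr8:70629393-70632456 and Gas2l3 at chr10:89408823-89443967.

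Members kept microglial identity by genes that the rule did not use. The summed level of 7 further microglial markers was 9350 and 11396 CPM (UMIs scaled to a common total over the summed cells) in members of Rbpj-deleted tumours and 13442.5 and 15457 CPM in members of healthy brains, against 12264 and 12604 CPM in other microglia of Rbpj-deleted tumours and 18136 and 20654 CPM in other microglia of healthy brains. The purinergic receptor genes P2ry12 and P2ry13 were at or near 0 in members, at 3.19 and 5.90 CPM and at 0 and 0 CPM in Rbpj-deleted tumours, and at 7.40 and 11.1 CPM and at 1.85 and 0 CPM in healthy brains. They were also low in other microglia, P2ry12 at 12.2 and 6.09 CPM in Rbpj-deleted tumours and at 8.65 and 24.8 CPM in healthy brains, so in this table these 2 genes do not mark any microglia well. Summed T and NK cell markers stayed at or below 7.87 CPM in members, against 908.1 to 3142 CPM in lymphoid barcodes. In members, border macrophage markers outside the rule gave 233 and 483 CPM in Rbpj-deleted tumours and 111 and 88.6 CPM in healthy brains. In other microglia they gave 163 and 517 CPM and 107 and 77.1 CPM. Neutrophil markers of members gave 849 and 418 CPM in Rbpj-deleted tumours and 1285 and 33.2 CPM in healthy brains. In other microglia these were 155 and 314 CPM and 597 and 282 CPM. The microglial part of the name rests on the 7 further markers. The T and NK contrast follows in part from the rule, which caps lymphoid UMIs in members, and lymphoid barcodes were chosen by the same lymphoid genes. The lipid part of the name comes from the genes that chose the cells and is no result. Other genes of lipid handling are tested below.

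Spp1 and Fam20c were the genes most often seen in a member. Spp1 was detected in 88.2% of members and 7.23% of other microglia, Fam20c in 74.9% and 2.85%, Gas2l3 in 68.4% and 4.01%, Lpl in 54.0% and 1.21%, Apoc1 in 41.7% and 3.02%, and Gdf15 in 10.7% and 2.15%. In lymphoid barcodes, a class without this programme, the same genes were detected in 8.99% (Spp1), 0% (Fam20c), 3.54% (Gas2l3), 0.272% (Lpl), 0.545% (Apoc1) and 0.272% (Gdf15), at a median of 4225 UMIs against 10375 in members and 5400 in other microglia. Fam20c was found in 0 of 367 lymphoid barcodes, which allows a share of up to 0.817%. Spp1 was seen more often in lymphoid barcodes (8.99%) than in other microglia (7.23%), so this class sets no floor for Spp1. The source of that Spp1 RNA was not tested.

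Most members carried the minimum of 3 genes and no more. Exactly 3 of the 6 genes were detected in 127 members, 4 in 49, 5 in 11 and all 6 in 0. Just outside the threshold, 321 other microglia had exactly 2 of the 6, and their median UMI count was 7740, against 9317 for the members with exactly 3. The commonest combination was Spp1, Fam20c and Gas2l3 in 29 members, followed by Spp1, Lpl and Fam20c in 26 members. Of the 5 activation genes, 41 members had none, 67 had 1 and 79 had 2. A further 219 microglia passed both thresholds and were counted as activated. Barcodes outside the microglial gate reached 3 of the 6 genes in 942 cases and were not counted as members.

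The 6 genes differed in where they were high among members. Spp1 had 1831 and 5053 CPM in members of Rbpj-deleted tumours, 716 and 261 CPM in members of control tumours and 799 and 537 CPM in members of healthy brains. Spp1 was higher in both Rbpj-deleted libraries than in any other library, and the single highest member held 899 Spp1 UMIs. In other microglia it had 542 and 504 CPM in Rbpj-deleted tumours, 19.4 and 44.5 CPM in control tumours and 18.6 and 19.2 CPM in healthy brains. Gdf15 of members ran the other way, with 3.19 and 27.5 CPM in Rbpj-deleted tumours and 146 and 94.1 CPM in healthy brains, and was listed at 0 in both control tumour libraries. Only 20 members held any Gdf15, the highest of them 32 UMIs. In activated microglia the order was reversed. As scaled for the tests, Gdf15 had 73.0 and 54.9 CPM there in Rbpj-deleted tumours and 32.2 and 9.04 CPM in healthy brains. Lpl had 67.0 and 103 CPM in Rbpj-deleted tumours and 120.2 and 216 CPM in healthy brains, and those libraries did not overlap. Fam20c had 147 and 188 CPM in Rbpj-deleted tumours and 131 and 138 CPM in healthy brains and did not overlap either, though the groups lay close. Among all genes tested between members of these groups 45.0% did not overlap, so a lack of overlap is common. Gas2l3 overlapped between these groups, at 188 and 95.4 CPM in Rbpj-deleted tumours and 128 and 172 CPM in healthy brains. Apoc1 had 57.4 and 188 CPM in Rbpj-deleted tumours, 449 and 2741 CPM in the 9 and 1 members of control tumours, and 66.6 and 38.8 CPM in healthy brains. These 6 levels describe how the members were chosen and carry no test.

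**Figure D1:**
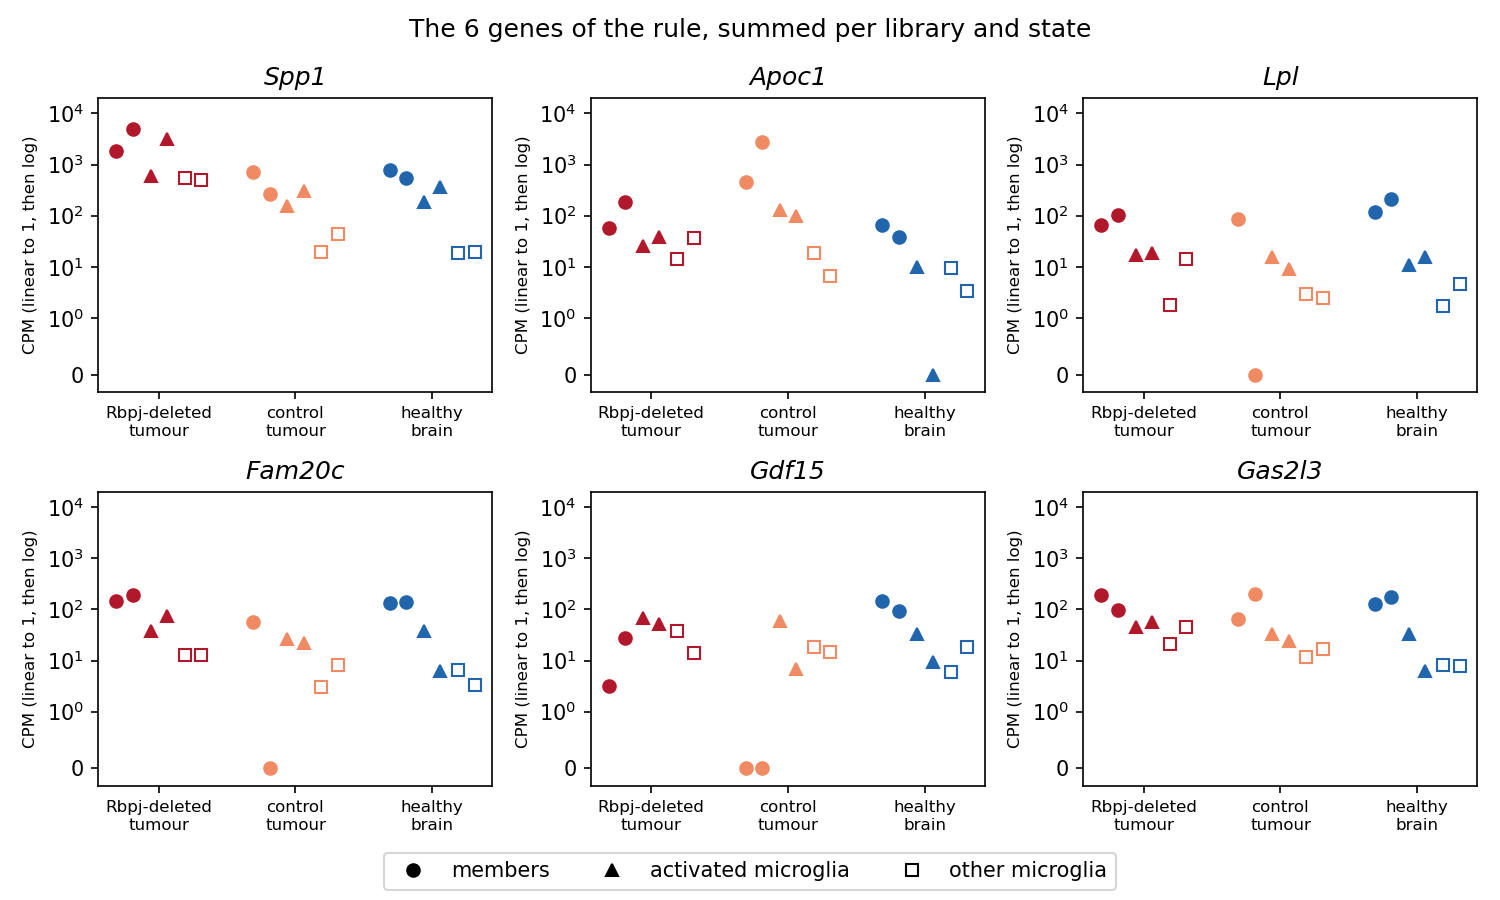
Level of each of the 6 genes of the rule in CPM (axis linear up to 1 and logarithmic above), 1 point per library, for members (circles), activated microglia (triangles) and other microglia (open squares) of Rbpj-deleted tumours, control tumours and healthy brains. Spp1 of members is highest in the 2 Rbpj-deleted libraries, while Gdf15 of members is highest in the 2 healthy libraries; the control tumour circles rest on 9 and 1 members.

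Members made up a larger share of microglia in the 2 Rbpj-deleted libraries than in the 2 healthy ones. They were 2.09% (26 of 1242, exact 95% binomial interval 1.37% to 3.05%) and 13.6% (85 of 624, 11.03% to 16.6%) of microglia in Rbpj-deleted tumours. They were 3.11% (9 of 289, 1.43% to 5.83%) and 0.407% (1 of 246, 0.0103% to 2.24%) in control tumours, and 0.851% (47 of 5524, 0.626% to 1.13%) and 0.973% (19 of 1952, 0.587% to 1.52%) in healthy brains. The intervals cover counting error only, and the 2 Rbpj-deleted libraries lay further apart than their intervals allow.

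The means were 7.86% ± 8.15 in Rbpj-deleted tumours, 1.76% ± 1.92 in control tumours and 0.912% ± 0.0866 in healthy brains (SD, n = 2 each). The difference between Rbpj-deleted tumours and healthy brains was 6.95 percentage points, with no overlap (two-sided exact permutation p = 0.333, the smallest that 2 against 2 libraries can give). Rbpj-deleted minus control tumours was 6.10 points with overlapping libraries (exact permutation p = 0.667), and control tumours minus healthy brains was 0.848 points (exact permutation p = 1). Over the 3 comparisons no adjusted p could pass 0.05. Without Rbpj-deleted replicate 2 the first difference was 1.18 points, without Rbpj-deleted replicate 1 it was 12.7 points, and without control tumour replicate 1 the control tumour difference turned to -0.506 points.

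**Figure D2:**
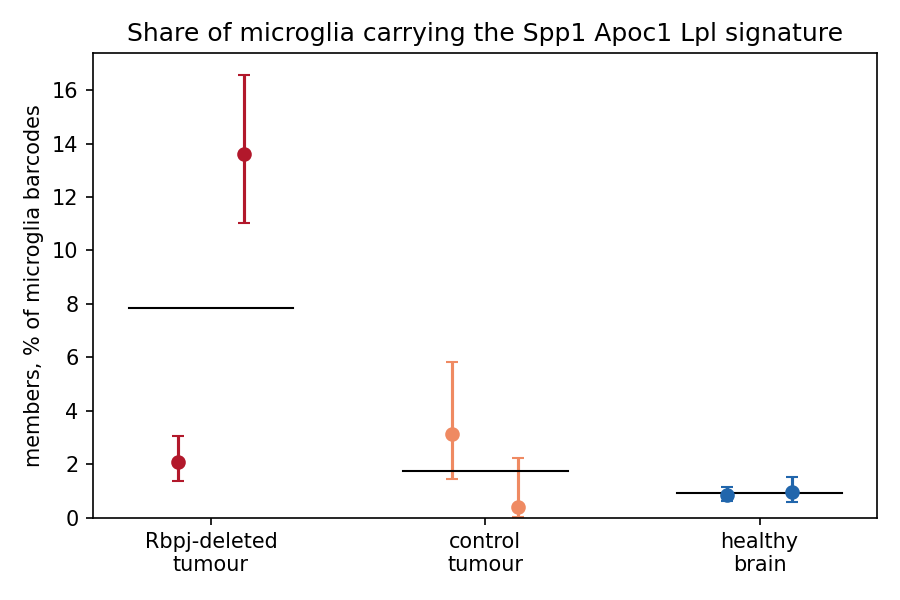
Members as a percent of microglial barcodes, 1 point per library with its exact 95% binomial interval, and group means as lines, for Rbpj-deleted tumours, control tumours and healthy brains. The 2 Rbpj-deleted libraries lie at 2.09% and 13.6%, both above the healthy libraries at 0.851% and 0.973%.

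The share depended on how activated cells were assigned. Activated microglia took 658 and 93 barcodes in Rbpj-deleted tumours, 115 and 84 in control tumours and 131 and 33 in healthy brains. With the activation genes left out of the rule, cells with at least 3 of the 6 genes were 13.8% and 19.9% of microglia in Rbpj-deleted tumours, 6.92% and 2.03% in control tumours and 1.19% and 1.02% in healthy brains, with no overlap between any groups. After every barcode was thinned to 3000 UMIs, which left out 174 and 90 shallower microglia in Rbpj-deleted tumours, 36 and 62 in control tumours and 647 and 323 in healthy brains, 69 barcodes met the rule, 47 of them members before thinning, and the mean shares were 3.56% in Rbpj-deleted tumours, 1.20% in control tumours and 0.263% in healthy brains.

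Against other microglia of the same library, members carried more RNA of lipid handling, lysosomes, glycolysis and the disease-associated programme, and less of the steady-state programme and of immediate early genes. The part of the cap on activation genes in the lower immediate early genes was not tested. The comparison used the 4 Rbpj-deleted and healthy libraries, since control tumour libraries held fewer than 10 members, and paired the 2 states within each library. Of 8909 genes tested, 768 (8.62%) were called at adjusted p under 0.05 (edgeR quasi-likelihood test, Benjamini-Hochberg), 365 higher in members (4.1%) and 403 lower (4.52%). Members were deeper than other microglia in every library, with median UMIs of 12182.5 against 5454.5 and 10169 against 5140 in Rbpj-deleted tumours, and 8692 against 5127 and 9127 against 5957.5 in healthy brains. Against other microglia between the lower and upper quartile of the members' UMIs in each library, 380 genes were called, of which 355 were among the 768. After thinning to 3000 UMIs, 69 barcodes met the rule. Healthy replicate 2 kept 5 of them and left the fit, which then held 3 libraries. In it 184 genes were called, 127 of them among the 768, so depth and the lost library cannot be told apart. Without Rbpj-deleted replicate 1 the count was 369, without healthy replicate 1 it was 505 and without healthy replicate 2 it was 426.

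The disease-associated list held 22 tested genes, of which 17 rose and 0 fell, with a median log2 fold change of 1.28 against -0.02 over all genes. Igf1, a growth factor, had 89.3 and 225 CPM in members against 21.9 and 61.6 CPM in other microglia of Rbpj-deleted tumours, and 75.8 and 116 CPM against 19.98 and 23.4 CPM in healthy brains. Members were above other microglia in all 4 libraries (log2 fold change 1.98 ± 0.16 SE, edgeR adjusted p = 3.93e-08). Lgals3, a galactose-binding lectin that marks damaged lysosomes, had 249 and 396 CPM against 76.0 and 116 CPM in Rbpj-deleted tumours and 133 and 77.5 CPM against 23.6 and 15.5 CPM in healthy brains (log2 fold change 2.01 ± 0.15 SE, edgeR adjusted p = 2.54e-08). Cst7, a cystatin that inhibits lysosomal proteases, rose by 1.66 ± 0.18 SE and Cd63, a tetraspanin of late endosomes, by 1.46 ± 0.15 SE on the log2 scale. Clec7a, the beta-glucan receptor dectin-1, did not pass (log2 fold change 3.19 ± 0.68 SE, edgeR adjusted p = 0.114), and had 1419.5 and 940.0 CPM in members against 217 and 289.9 CPM in other microglia of Rbpj-deleted tumours and 484 and 1179.6 CPM against 32.9 and 44.1 CPM in healthy brains. Members lay above other microglia in all 4 libraries. Trem2, the lipid-sensing receptor upstream of this programme, had a log2 fold change of 0.08 ± 0.10 SE and did not pass (edgeR adjusted p = 0.746), while its partner Tyrobp rose by 0.44 ± 0.10 SE.

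Genes that move cholesterol out of the cell were among those that rose. Of 18 tested genes of lipid uptake, storage and efflux, 10 rose and 0 fell, with a median log2 fold change of 0.75. Abcg1, which exports cholesterol to lipoproteins, had 794 and 855 CPM in members against 373 and 478 CPM in other microglia of Rbpj-deleted tumours, and 357 and 1030.1 CPM against 151 and 311 CPM in healthy brains (log2 fold change 1.19 ± 0.12 SE, edgeR adjusted p = 1.18e-06). Its partner Abca1 rose by 0.75 ± 0.12 SE, the esterifying enzyme Soat1 by 0.74 ± 0.14 SE, the lysosomal acid lipase Lipa by 0.73 ± 0.14 SE and the lysosomal cholesterol carrier Npc2 by 0.59 ± 0.10 SE. Apoe, the main apolipoprotein of the brain, rose by 1.11 ± 0.19 SE, and the fatty acid carrier Fabp3 by 2.20 ± 0.47 SE. Plin2, a coat protein of lipid droplets, rose by 0.83 ± 0.26 SE (edgeR adjusted p = 0.045), a value close to the threshold. In cholesterol and fatty acid synthesis 1 of 14 tested genes passed, the desaturase Scd2, which rose by 1.16 ± 0.15 SE.

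The lysosomal list had 30 tested genes, of which 16 rose and 1 fell, with a median log2 fold change of 0.43. The cathepsin Ctsb had 5327 and 7188 CPM in members against 2547 and 4154 CPM in other microglia of Rbpj-deleted tumours, and 3596 and 5571 CPM against 1972 and 1862 CPM in healthy brains (log2 fold change 1.05 ± 0.11 SE). Atp6v0c and Atp6v1a, subunits of the proton pump that acidifies lysosomes, rose by 1.04 ± 0.11 SE and 0.95 ± 0.14 SE. Mitf, a transcription factor of lysosomal genes, rose by 0.76 ± 0.17 SE. The lysosomal gene that fell was Cst3, a secreted cystatin abundant in microglia, with a log2 fold change of -0.55 ± 0.11 SE.

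Upstream stretches of some lysosomal genes that rose are shown because the MITF and TFE family binds the letters TCACGTGA and close variants. The 250 bases before the RefSeq start (GRCm38.p6) were searched on both strands for TCANGTGA. It was present in 18 of the 289 promoters matched to the 365 genes higher in members (6.23%), in 18 of 316 matched to the lower genes (5.7%), in 290 of 7034 of all tested genes (4.12%) and in 1075 of all 27025 promoters (3.98%). Of the other motifs searched, CACGTG, which overlaps the first, was in 13.1% of promoters of higher genes, 13.6% of lower and 10.7% of tested genes. TGANTCA was in 5.88%, 3.48% and 5.06%, and TGACGT in 11.1%, 11.4% and 12.7%. Over all 27025 promoters the shares were 6.86% for CACGTG, 7.82% for TGANTCA and 7.29% for TGACGT. The shares of TCANGTGA in higher and in lower genes lay close together. In the sequences below, capitals mark the match, and each is written 5′ to 3′ on the strand of its gene.
Ctsd, chr7:142387893-142387952, minus strand: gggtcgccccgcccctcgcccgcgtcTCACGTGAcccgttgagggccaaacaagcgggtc
Ctsa, chr2:164833734-164833772, plus strand: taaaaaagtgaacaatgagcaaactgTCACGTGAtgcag
Atp6v1a, chr16:44139358-44139417, minus strand: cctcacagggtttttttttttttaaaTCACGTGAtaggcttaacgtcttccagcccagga
Atp6v0c, chr17:24169451-24169493, minus strand: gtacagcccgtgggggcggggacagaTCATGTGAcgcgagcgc
Ctsd, Ctsa and Atp6v1a hold the full palindrome and Atp6v0c a variant of it. Matches in Cst7 (TCAAGTGA) and at a second place in Ctsa (TCACCTGA) are not shown. The stretches shown were picked and do not give the share of matches among the 16 lysosomal genes that rose. Ctsd rose by 0.51 ± 0.12 SE and Ctsa by 0.43 ± 0.11 SE in members, both cathepsins of the lysosome. A match is a description of these letters and not a bound site.

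Glycolytic genes rose as a group in members. Of 18 tested genes of glycolysis and hypoxia, 11 rose and 1 fell, with a median log2 fold change of 0.87. Ldha, lactate dehydrogenase, had 597 and 626 CPM in members against 229 and 377 CPM in other microglia of Rbpj-deleted tumours, and 357 and 443 CPM against 192 and 143 CPM in healthy brains (log2 fold change 1.11 ± 0.13 SE, edgeR adjusted p = 1.38e-05). Hif1a, the oxygen-sensing transcription factor, rose by 1.46 ± 0.19 SE, the lactate exporter Slc16a3 by 1.10 ± 0.16 SE, the cytokine Mif by 1.25 ± 0.12 SE and the pyruvate kinase gene Pkm by 1.04 ± 0.11 SE. Ddit4, an mTOR inhibitor induced by glucocorticoid and hypoxia, had a log2 fold change of -1.14 ± 0.25 SE. Mif, Pkm, Ldha and other genes of this list share many of their 31-base stretches with other annotated genes. The shares were 39.1% for Mif, 34.7% for Pkm and 19.6% for Ldha, so their counts are less certain. The same holds for Fabp3 (37.3%) and Ctsd (33.2%) above.

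Part of the steady-state programme was lower in members. Of 23 tested genes of homeostatic microglia, 10 fell and 1 rose, with a median log2 fold change of -0.38. Adgrg1, an adhesion receptor, had 149.9 and 104 CPM in members against 349 and 223 CPM in other microglia of Rbpj-deleted tumours, and 287 and 177 CPM against 517 and 482 CPM in healthy brains (log2 fold change -1.14 ± 0.12 SE, edgeR adjusted p = 2.02e-06). The lectin Siglech had a log2 fold change of -0.98 ± 0.11 SE, the selectin ligand Selplg -0.94 ± 0.10 SE, the fractalkine receptor Cx3cr1 -0.53 ± 0.10 SE and the transcription factor Sall1, which keeps microglial identity, -0.72 ± 0.12 SE. Cd34, a sialomucin, was the gene that rose, by 1.47 ± 0.43 SE. Of 21 immediate early and dissociation genes 15 fell and 0 rose, with Jun at -0.84 ± 0.11 SE and the heat shock gene Hspa1a at -1.20 ± 0.22 SE. In Rbpj-deleted tumours Jun had 2188 and 2284 CPM in members against 4428 and 3825 CPM in other microglia, and in healthy brains 7554 and 3461 CPM against 10047 and 7389.7 CPM. In the comparison with matched depth 6 homeostatic and 13 immediate early genes fell.

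The lists described next had 0 to 4 genes called each. Among growth factor and matrix genes 4 of 16 rose (median log2 fold change 0.82), including the growth factor Pdgfa by 1.20 ± 0.18 SE. Type I interferon genes had 1 of 26 called, Bst2, which rose by 0.53 ± 0.13 SE, and interferon-gamma genes had 2 of 13 called, the guanylate-binding proteins Gbp5 and Gbp7, with log2 fold changes of -1.01 ± 0.27 SE and -1.0 ± 0.17 SE. MHC class II genes had 0 of 12 called by edgeR, MHC class I genes 1 of 17 (B2m, which rose by 0.35 ± 0.11 SE) and chemokine genes 1 higher (Ccl9, 0.69 ± 0.13 SE) and 1 lower (Ccl12, -0.44 ± 0.11 SE) of 16. Cell cycle genes had 0 of 19 called by edgeR, with a median log2 fold change of 0.84 and all 19 above 0, and Notch pathway genes 0 of 11. Of the stress lists, 1 of 15 integrated stress response genes rose, Psat1 of serine synthesis, by 1.30 ± 0.28 SE. Among 10 p53 targets Plk2 and Bax rose, by 1.18 ± 0.30 SE and 0.49 ± 0.11 SE, while Btg2 and Sesn1 had log2 fold changes of -0.64 ± 0.10 SE and -0.63 ± 0.19 SE.

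Of phagocytic receptor genes 3 of 20 rose and 1 fell. The scavenger receptors Cd36 and Msr1 rose by 1.0 ± 0.25 SE and 2.66 ± 0.72 SE, and the Fc receptor Fcgr1 had a log2 fold change of -0.42 ± 0.10 SE. Lists of other cell types gave 0 higher genes, and 1 lower gene each for T and NK cells (Klrd1, log2 fold change -2.84 ± 0.62 SE) and B cells (Ighm, -0.49 ± 0.11 SE). For 4 members of healthy replicate 1, however, 8 fibroblast genes gave 268 to 489 UMIs a barcode, against at most 3 in any other member, and 3 members held 266 to 689 UMIs of neutrophil genes. These were 6 members in all. Without every barcode of such RNA, in either state, 801 genes were called, of which 702 were among the 768.

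Large changes were also found in genes mostly outside these lists. Rab7b, a small GTPase of endosomes, had 86.1 and 102 CPM in members against 14.9 and 25.4 CPM in other microglia of Rbpj-deleted tumours, and 79.5 and 27.7 CPM against 3.73 and 3.19 CPM in healthy brains (log2 fold change 2.96 ± 0.45 SE, edgeR adjusted p = 0.0125). Nes, which encodes the intermediate filament nestin, had 41.5 and 46.2 CPM against 11.5 and 13.3 CPM in Rbpj-deleted tumours and 122 and 72.0 CPM against 11.4 and 6.83 CPM in healthy brains (log2 fold change 2.67 ± 0.29 SE, edgeR adjusted p = 2.55e-05). The adhesion molecule Alcam rose by 2.64 ± 0.58 SE, the actin-binding genes Rai14 and Capg by 2.45 ± 0.51 SE and 2.12 ± 0.23 SE, Vat1 by 2.03 ± 0.24 SE, the pyrophosphate transporter Ank by 2.13 ± 0.33 SE and the metallothionein Mt2 by 2.80 ± 0.60 SE. The falls named by size were Gpr165 at -2.83 ± 0.44 SE, Rad51b at -2.07 ± 0.39 SE, Tppp at -1.90 ± 0.36 SE, Cfap74 at -1.83 ± 0.43 SE, Mycl at -1.76 ± 0.28 SE, Fry at -1.69 ± 0.37 SE, Tnfrsf17 at -1.65 ± 0.36 SE, Cep68 at -1.65 ± 0.22 SE, Sema4b at -1.49 ± 0.37 SE and Lrba at -1.47 ± 0.23 SE, all log2 fold changes.

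**Figure D3:**
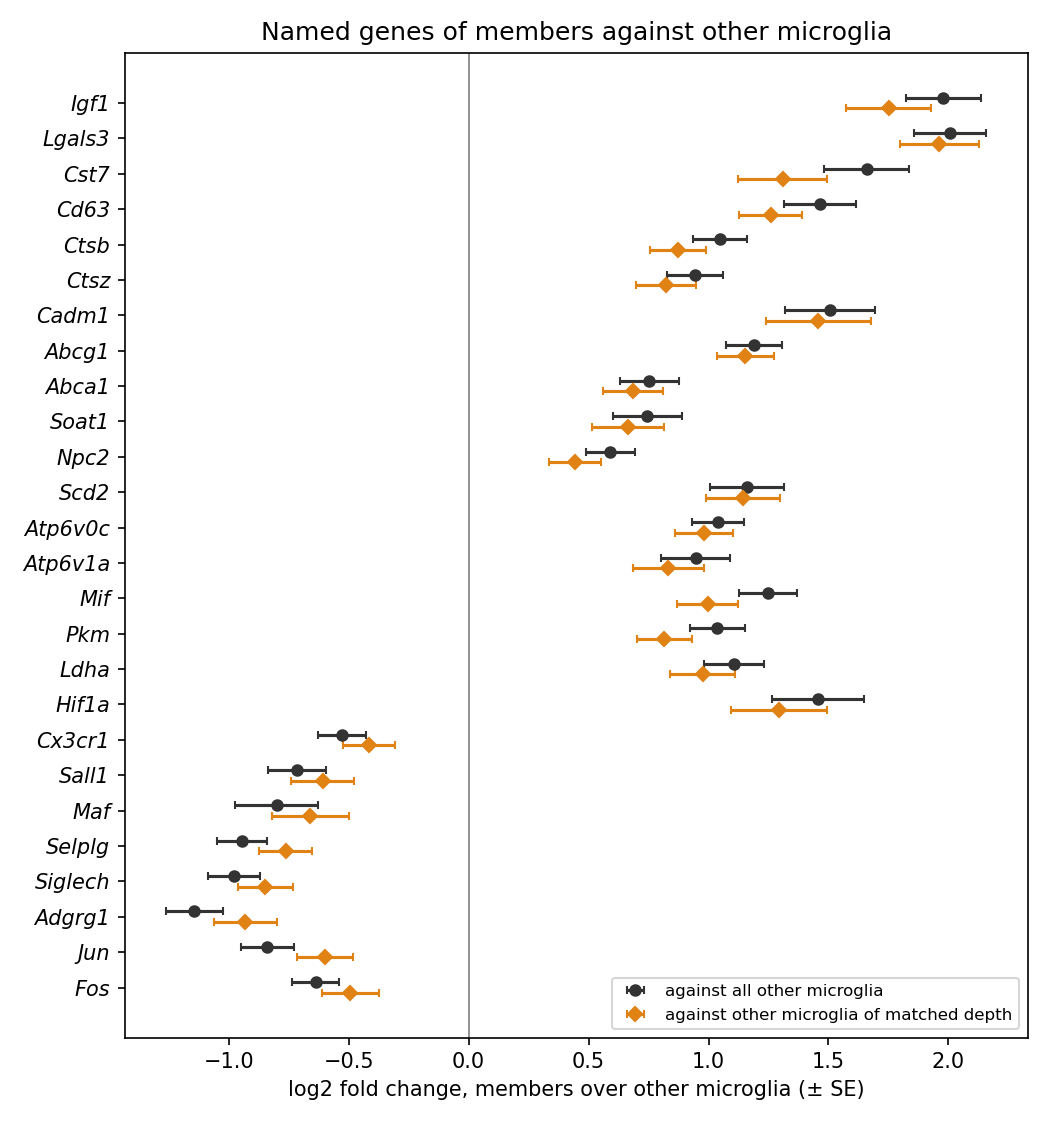
Log2 fold change of members over other microglia (± SE) for 26 named genes, against all other microglia (circles) and against other microglia of matched depth (diamonds), fitted over 2 Rbpj-deleted and 2 healthy libraries. The genes down to Hif1a lie above 0 and those from Cx3cr1 on below 0 in both fits, with Igf1 and Lgals3 near 2.

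Set against activated microglia, the members were again higher in disease-associated, lipid and lysosomal genes and lower in immediate early genes. Of 6821 genes tested in the same 4 libraries, 266 (3.9%) were called by edgeR at adjusted p under 0.05, 93 higher (1.36%) and 173 lower (2.54%). DESeq2 called 130. After thinning to 3000 UMIs, which left 3 libraries, edgeR called 23. Without Rbpj-deleted replicate 1 edgeR called 88, and without healthy replicate 2 it called 170. Median UMIs were 12182.5 and 10169 in members against 11635 and 14592 in activated microglia of Rbpj-deleted tumours, and 8692 and 9127 against 12871 and 8414 in healthy brains, so members were the deeper state in 1 library of each group. The 5 genes that separate these states in the rule, and the 6 genes that define members, were not tested. Genes that vary together with either set may still follow the choice of cells, and this part was not tested.

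Of 22 disease-associated genes 13 rose and 0 fell against activated microglia, with a median log2 fold change of 0.61. Apoe had 855 and 969.5 CPM in members against 320.0 and 439.5 CPM in activated microglia of Rbpj-deleted tumours, and 489.9 and 631 CPM against 296 and 162 CPM in healthy brains (log2 fold change 1.22 ± 0.16 SE, edgeR adjusted p = 0.000331). Clec7a rose by 1.37 ± 0.22 SE, Igf1 by 1.65 ± 0.21 SE and Cd9, a tetraspanin, by 0.98 ± 0.12 SE. Clec7a lost its call without the barcodes of fibroblast or neutrophil RNA (adjusted p = 0.155). Of 18 lipid genes 5 rose, Apoe, Abcg1 (0.84 ± 0.11 SE), Soat1 (0.58 ± 0.14 SE), Abca1 (0.51 ± 0.12 SE) and Npc2 (0.43 ± 0.11 SE), and 0 fell. Of 29 lysosomal genes 10 rose and 0 fell, among them Ctsd by 0.63 ± 0.12 SE and Atp6v0c by 0.59 ± 0.11 SE.

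Immediate early genes were lower in members than in activated microglia. Egr3, a gene of that kind, is part of the rule that separates the 2 states and was not tested. Of 21 tested, 17 fell and 0 rose, with a median log2 fold change of -1.07. Ier2, an early-response gene, had 297 and 189 CPM in members against 798 and 494 CPM in activated microglia of Rbpj-deleted tumours, and 455 and 222 CPM against 899 and 627 CPM in healthy brains (log2 fold change -1.33 ± 0.12 SE, edgeR adjusted p = 8.24e-07). The nuclear receptor Nr4a1 had 258 and 64.9 CPM against 779 and 266 CPM in Rbpj-deleted tumours and 51.8 and 33.2 CPM against 106 and 109 CPM in healthy brains (log2 fold change -1.66 ± 0.15 SE). The NF-kappaB inhibitor Nfkbia had a log2 fold change of -1.23 ± 0.12 SE, the cyclooxygenase gene Ptgs2 -2.02 ± 0.37 SE, the cytokine Osm -1.08 ± 0.20 SE and the chemokine Ccl12 -1.07 ± 0.15 SE. The p53 target and cell cycle inhibitor Cdkn1a had -0.99 ± 0.22 SE. Of MHC class II genes 2 of 10 fell, H2-DMb1 at -0.93 ± 0.14 SE and H2-Eb1 at -1.25 ± 0.20 SE, and 0 rose.

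Within members, Rbpj-deleted tumours and healthy brains differed in genes of antigen presentation and interferon response. Of 5480 genes tested in the 4 libraries, edgeR called 57 (1.04%) at adjusted p under 0.05, 50 higher (0.912%) and 7 lower (0.128%) in Rbpj-deleted tumours. The libraries of the 2 groups did not overlap in 45.0% of the genes tested. With library totals alone in place of TMM scaling, which moved the median of all genes to -0.16, the split was 43 higher and 17 lower. DESeq2 called 46 higher and 6 lower. With 1 library left out, edgeR called 241 genes without Rbpj-deleted replicate 1 (143 higher and 98 lower), 138 without Rbpj-deleted replicate 2 (82 and 56), 148 without healthy replicate 1 (115 and 33) and 349 without healthy replicate 2 (180 higher and 169 lower). The numbers of members were 26 and 85 in Rbpj-deleted tumours and 47 and 19 in healthy brains.

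MHC class I genes were higher together. Of 17 tested genes of MHC class I presentation 12 rose and 0 fell, with a median log2 fold change of 2.45 against -0.01 over all genes. H2-K1, a classical class I heavy chain gene, had 3952 and 3496 CPM in members of Rbpj-deleted tumours, against 841 and 582 CPM in members of healthy brains (log2 fold change 2.52 ± 0.26 SE, edgeR adjusted p = 0.00148). Psmb9, a subunit of the immunoproteasome that cuts peptides for class I, had 351 and 316 CPM in Rbpj-deleted tumours against 57.3 and 33.2 CPM in healthy brains (log2 fold change 2.90 ± 0.32 SE). Tap1, which carries those peptides into the endoplasmic reticulum, rose by 2.68 ± 0.33 SE, and Psmb8 by 1.88 ± 0.28 SE. The class I genes H2-Q6 and H2-Q7 share 50.3% and 39.1% of their 31-base stretches with other genes, so the division of counts between them is uncertain.

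MHC class II genes rose in 4 of 9 tested, with 0 lower and a median log2 fold change of 3.46. H2-Aa had 2399 and 992 CPM in Rbpj-deleted tumours against 85.0 and 66.5 CPM in healthy brains (log2 fold change 4.58 ± 0.46 SE, edgeR adjusted p = 0.00283). H2-Ab1, its partner chain, rose by 4.27 ± 0.46 SE and the peptide-loading gene H2-DMb1 by 3.46 ± 0.43 SE. H2-Eb1 and the class I gene H2-T22 gave 0 UMIs in all healthy members, against 2509 and 95 UMIs in members of Rbpj-deleted tumours. Over all cells, H2-Eb1 was also low in control tumours, at 80.4 and 69.1 CPM, against 6263 and 4301 CPM in Rbpj-deleted tumours. In healthy replicates 1 and 2 it had 5.94 and 345 CPM over all cells. H2-T22 parted the libraries in the same way, with 0.471 and 21.6 CPM in healthy replicates 1 and 2. H2-T22 shares 51.0% of its 31-base stretches with other genes, so its counts are less certain.

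Such genes part the libraries across the groups. Trim12a had 48.6 and 46.7 CPM over all cells of Rbpj-deleted tumours, 0.274 and 0.445 CPM in control tumours, and 0.0905 and 31.7 CPM in healthy replicates 1 and 2. Healthy replicate 2 therefore lay with the Rbpj-deleted libraries and healthy replicate 1 with the control tumours. With this division as a term, the contrast sets Rbpj-deleted tumours against healthy replicate 2 alone, and 142 genes were called, 47 of them among the 57. Under it H2-K1 had a log2 fold change of 2.80, Gbp2 4.54, Psmb9 3.44 and Cst7 3.89. The part of the division in the other values was not tested.

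Some interferon-induced genes were also called as higher in members of Rbpj-deleted tumours. Of 18 type I interferon genes 4 rose and 0 fell (median log2 fold change 1.75), and of 9 interferon-gamma genes 1 rose and 0 fell (median 2.12). Gbp2, a guanylate-binding protein induced by interferon-gamma, had 299.9 and 194 CPM in Rbpj-deleted tumours against 16.6 and 11.1 CPM in healthy brains (log2 fold change 4.13 ± 0.41 SE, edgeR adjusted p = 0.00148). The membrane protein Bst2 had 501 and 407 CPM in Rbpj-deleted tumours against 129 and 127 CPM in healthy brains (log2 fold change 1.95 ± 0.27 SE). The DNA sensor Ifi204 rose by 3.0 ± 0.46 SE. Ccl12, a monocyte-attracting chemokine, had 440.2 and 904 CPM in Rbpj-deleted tumours against 85.0 and 122 CPM in healthy brains (log2 fold change 2.91 ± 0.40 SE), and Cxcl16 rose by 1.74 ± 0.27 SE.

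In the disease-associated list 4 of 22 genes rose (median log2 fold change 0.82, with all 22 above 0) and 0 fell. Cst7 had 246 and 215 CPM in Rbpj-deleted tumours against 33.3 and 16.6 CPM in healthy brains (log2 fold change 3.17 ± 0.36 SE, edgeR adjusted p = 0.00165), the ferritin gene Fth1 rose by 1.16 ± 0.19 SE, Lgals3 by 1.71 ± 0.34 SE and B2m by 1.38 ± 0.29 SE. Lgals3 lost its call without the barcodes of fibroblast or neutrophil RNA (adjusted p = 0.0718). In the lipid list, where 13 of 15 log2 fold changes were above 0, 1 rose, the fatty acid receptor Cd36 by 2.37 ± 0.46 SE, and its call was lost with the library division as a term (adjusted p = 0.211). Lysosomal genes had 1 of 28 called (Cst7), glycolysis genes 0 of 14 and homeostatic genes 0 of 20, by edgeR. C1qa, the complement chain that tags synapses and debris, rose by 0.99 ± 0.19 SE (edgeR adjusted p = 0.0338), and lost its call without the barcodes of fibroblast or neutrophil RNA (adjusted p = 0.0531).

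Some genes were not detected in one group. Fn1, Dnase1l3, Il12b and Ccr7 gave 0 UMIs in healthy members, against 145, 102, 71 and 58 UMIs in members of Rbpj-deleted tumours, which is at least 26.2-fold, 18.4-fold, 12.8-fold and 10.5-fold higher when 3 UMIs over the healthy group are taken as the floor. Fn1 is also a marker of monocyte-derived macrophages and Ccr7 of mature dendritic cells. Summed markers of monocyte-derived macrophages outside the rule, Fn1 included, gave 67.0 and 145 CPM in members of Rbpj-deleted tumours and 16.6 and 5.54 CPM in members of healthy brains, and summed dendritic markers, Ccr7 included, 89.3 and 49.2 CPM and 3.70 and 5.54 CPM. The part of such RNA in these genes was not tested.

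The 7 lower genes included Nfia, a transcription factor, with 25.5 and 41.3 CPM in members of Rbpj-deleted tumours against 194 and 138 CPM in members of healthy brains (log2 fold change -2.10 ± 0.36 SE, edgeR adjusted p = 0.0164). Ccng2, a cyclin that slows the cell cycle, had 51.0 and 32.4 CPM in Rbpj-deleted tumours against 157 and 172 CPM in healthy brains (log2 fold change -1.91 ± 0.35 SE). Fkbp5, a target of the glucocorticoid receptor, had a log2 fold change of -2.12 ± 0.43 SE, Serpinf1 -2.09 ± 0.40 SE and the small GTPase Rhob -1.20 ± 0.24 SE. With the library division as a term, Fkbp5, Serpinf1 and Rhob were no longer called (adjusted p = 0.0589, 0.159 and 0.0692).

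**Figure D4:**
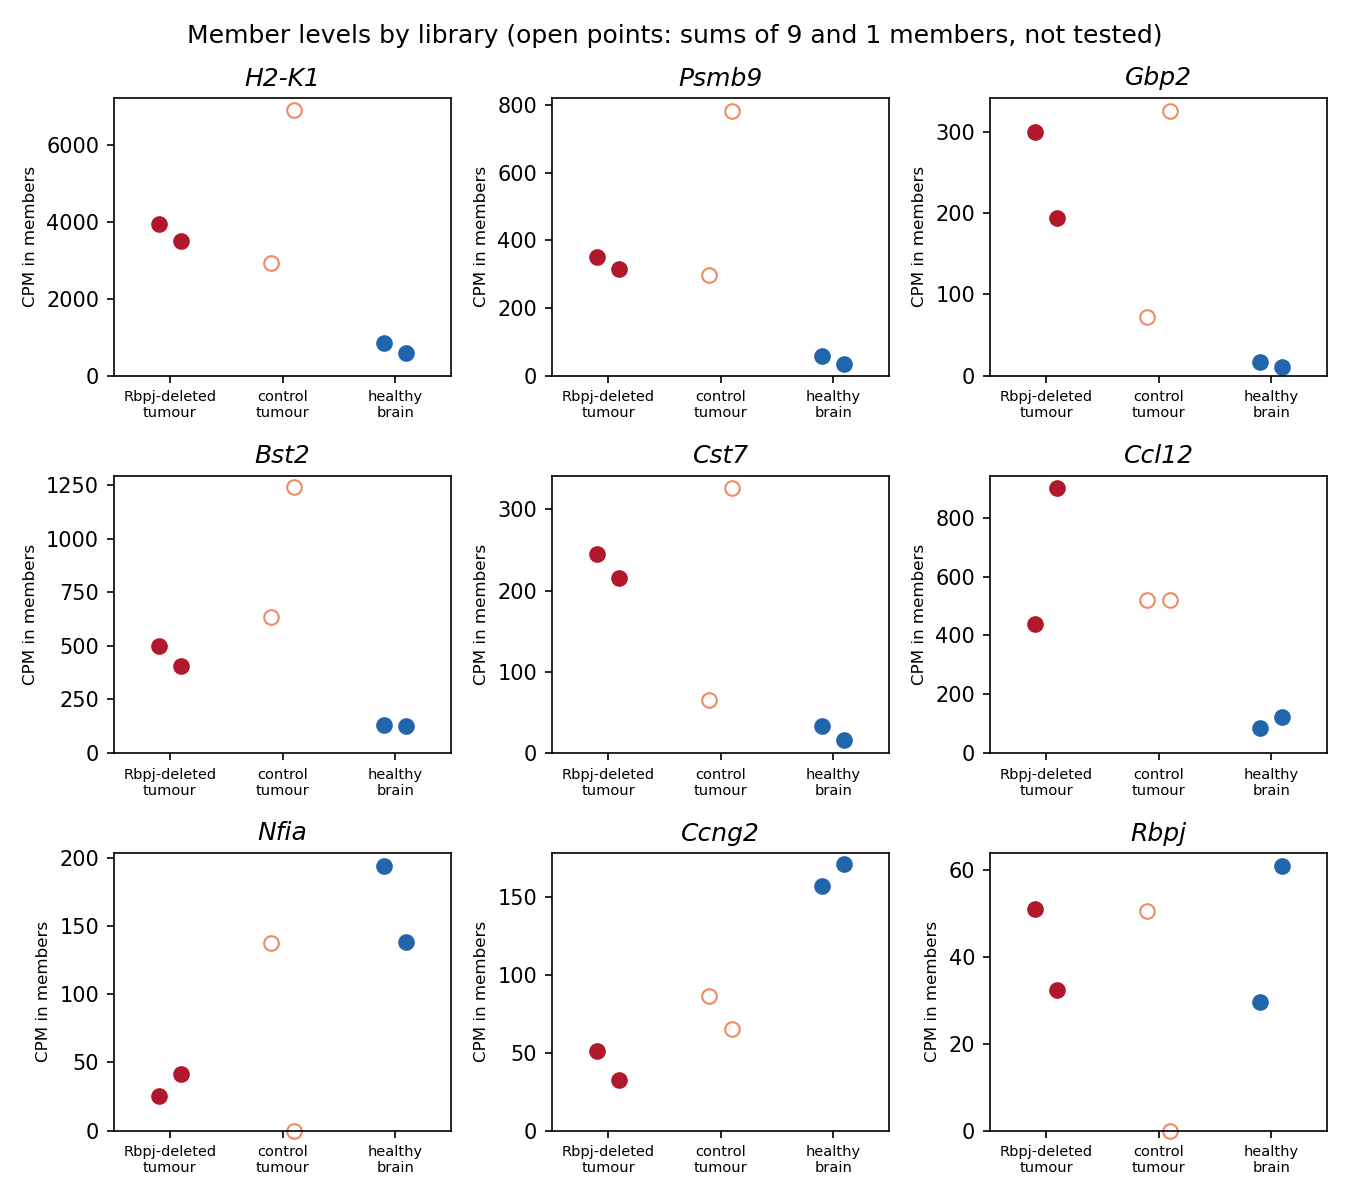
Level in members (CPM, linear axis from 0), 1 point per library, for 9 genes in Rbpj-deleted tumours, control tumours and healthy brains; open points are the sums of 9 and 1 control tumour members, which entered no test. H2-K1, Psmb9, Gbp2, Bst2, Cst7 and Ccl12 lie higher in both Rbpj-deleted libraries than in both healthy ones, Nfia and Ccng2 lie lower, and Rbpj overlaps.

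Rbpj itself overlapped between the groups in these host immune cells. Members had 51.0 and 32.4 Rbpj CPM in Rbpj-deleted tumours against 29.6 and 60.9 CPM in healthy brains (log2 fold change 0.11 ± 0.49 SE, edgeR adjusted p = 0.949), and 3' end counts do not tell a deleted allele from an intact one unless its end is missing. Over all cells the level was 64.8 and 47.6 CPM in Rbpj-deleted tumours, 88.9 and 87.2 CPM in control tumours and 33.3 and 59.5 CPM in healthy brains. The levels thus do not check the labels. Among 7 tested Notch pathway genes 0 were called between Rbpj-deleted and healthy members by edgeR.

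Members of control tumours were too few to test, at 9 and 1. Their sums gave H2-K1 at 2938 and 6918 CPM, Bst2 at 637 and 1240.0 CPM, Cst7 at 65.1 and 326 CPM and Nfia at 138 and 0 CPM. A wider rule, with at least 2 of the 6 genes, gave 16 and 10 cells in control tumours and was fitted over all 6 libraries. Between control tumours and healthy brains edgeR then called 51 of 6849 genes (0.745%), 48 higher (0.701%) and 3 lower (0.0438%), and DESeq2 145. Bst2 had 483 and 485 CPM in control tumours against 107 and 105 CPM in healthy brains (log2 fold change 2.18 ± 0.28 SE, edgeR adjusted p = 0.00241), H2-K1 rose by 2.79 ± 0.41 SE and Gbp2 by 4.12 ± 0.58 SE. Between Rbpj-deleted and control tumours edgeR called 0 genes, with 531 at an unadjusted p under 0.05, and DESeq2 called 10. In that contrast H2-K1 had a log2 fold change of -0.11 ± 0.38 SE, Gbp2 1.01 ± 0.45 SE and Cst7 0.61 ± 0.49 SE.

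**Figure D5:**
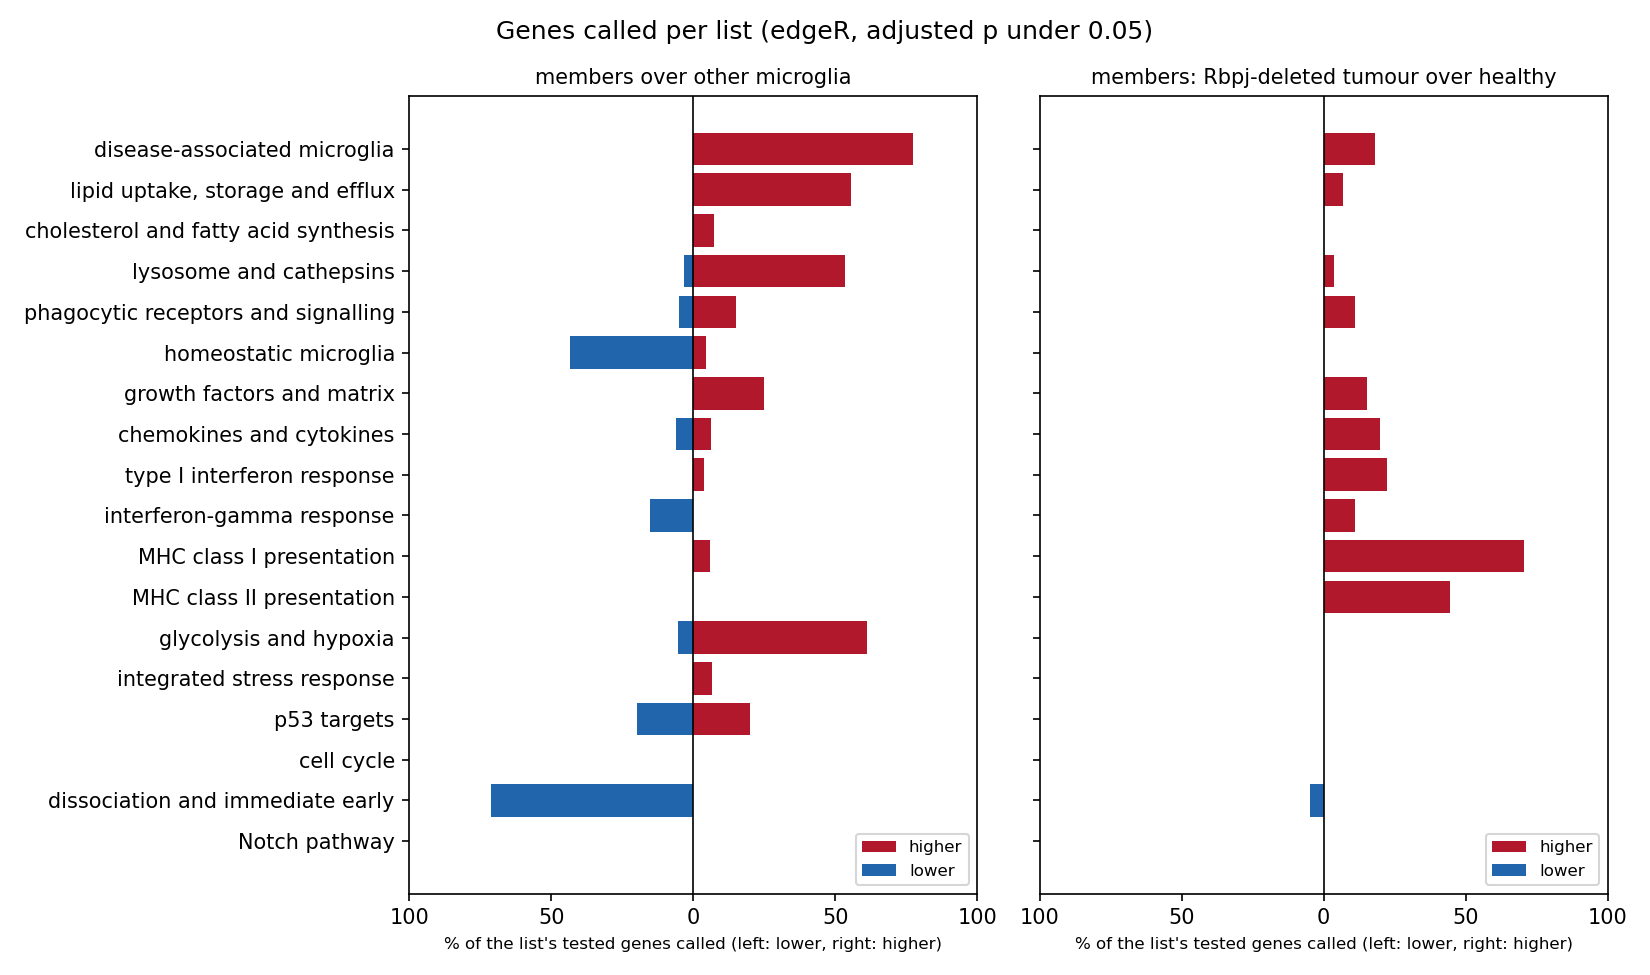
Percent of the tested genes of each of 18 lists that edgeR called at adjusted p under 0.05, to the right when higher and to the left when lower, for members over other microglia (left panel) and for members of Rbpj-deleted tumours over members of healthy brains (right panel). In the left panel disease-associated, glycolysis, lipid and lysosomal lists stand out as higher, and immediate early and homeostatic lists as lower. In the right panel MHC class I and II stand out as higher.

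The change between Rbpj-deleted tumours and healthy brains was set against that in other microglia of the same libraries. Of 9892 genes, edgeR called 105 (1.06%) for a difference between the 2 changes, 5 higher (0.0505%) and 100 lower (1.01%), where lower means that the rise in Rbpj-deleted tumours was smaller, or the fall larger, in members. The 2 groups' differences did not overlap in 34.1% of the genes tested. Without barcodes of fibroblast or neutrophil RNA 44 genes were called, 36 of them among the 105, and DESeq2 called 33. After thinning to 3000 UMIs the split was 43 higher and 71 lower, with 17 genes shared with the 105, and without healthy replicate 1 it was 21 higher and 67 lower, with 33 shared. Each of these 2 fits held 1 healthy library, the thinned fit replicate 1, since replicate 2 kept 5 thinned members. Scaling by library totals moved the median of all genes to -0.11 and called 102. Among MHC class II genes 0 of 13 were called. In the chemokine list 3 of 19 were lower, among them Ccl3, which had 2370.2 and 1155 CPM in members and 1888 and 1064 CPM in other microglia of Rbpj-deleted tumours, against 1869 and 3323 CPM and 785 and 1001 CPM in healthy brains (log2 difference -1.18 ± 0.19 SE, edgeR adjusted p = 1.68e-05). Members were thus set apart from other microglia by Ccl3 in both healthy libraries by more than in either Rbpj-deleted one. Lgals1, a galectin, behaved likewise, with 188 and 281 CPM and 86.9 and 167 CPM in Rbpj-deleted tumours against 499 and 177 CPM and 66.6 and 14.6 CPM in healthy brains (log2 difference -2.14 ± 0.26 SE). Fcrls, a microglial Fc receptor-like gene, went the other way, with 1515 and 1909.6 CPM and 1303 and 1619 CPM in Rbpj-deleted tumours against 2200.1 and 1512 CPM and 3489 and 2870.3 CPM in healthy brains (log2 difference 1.10 ± 0.19 SE).

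Cycling cells were more frequent among members than among other microglia of the same library. Barcodes with at least 3 UMIs of 10 cell cycle genes were 19.2% (5 of 26) and 24.7% (21 of 85) of members in Rbpj-deleted tumours and 6.38% (3 of 47) and 10.5% (2 of 19) in healthy brains, against 3.94% and 16.1% of other microglia in Rbpj-deleted tumours and 0.561% and 1.21% in healthy brains. Among activated microglia they were 13.4% and 45.2% in Rbpj-deleted tumours and 3.05% and 3.03% in healthy brains. Members also held more UMIs a barcode, so the part of depth in these shares was not tested. Of 20 cell cycle genes 5 were lower in the difference between the changes, with Birc5, a mitotic survival gene, at 35.1 and 86.5 CPM and 14.9 and 120.4 CPM in members and other microglia of Rbpj-deleted tumours, against 12.9 and 88.6 CPM and 1.31 and 2.75 CPM in healthy brains (log2 difference -4.24 ± 0.59 SE, edgeR adjusted p = 1.55e-05). After thinning to 3000 UMIs, with replicate 1 as the only healthy library, the log2 difference of Birc5 turned to 6.0. The healthy values rest on 3 and 2 cycling members.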

How the data were processed

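Single-cell RNA counts were deposited as a table of UMIs per gene and barcode for 6 libraries, made by the authors with kallisto 0.46.0, bustools 0.39.3 and the mm10 build, per the submitters' processing notes. The table held 27378 gene IDs and 17362 barcodes, each with at least 1000 UMIs. Symbols came from the GENCODE annotation of GRCm38, which named 27359 of the IDs. Droplets with more than 1 cell were not called. Total counts per library ran between 17430763 and 55229031.

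Deposited counts were summed per library and state and tested with edgeR 4.0.16 in R 4.3.3 (TMM scaling, filterByExpr, robust quasi-likelihood test, Benjamini-Hochberg over all genes tested, threshold 0.05). The SE is the log2 fold change over the square root of F. Contrasts of states had the library as a block. Libraries with fewer than 10 members were left out of the sums, so the control tumours entered no test of members and the planned contrasts with them were replaced by the wider rule, chosen after seeing the data. DESeq2 1.42.0, other cell rules, thinning to 3000 UMIs, other filters and scalings, matched depth and each library left out were the alternatives.

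Members, lists and tests were chosen with earlier results of these data known. Named genes were up to 10 largest rises and 10 largest falls per test among called genes of at least 20 CPM whose libraries did not overlap or kept 1 direction, and up to 6 genes of smallest p per list. Apoe, Cd34, Clec7a, Cst3, Ddit4, Hspa1a, Mitf, Plin2, Slc16a3 and Trem2 against other microglia, and Psmb8 between groups, were named after their values were seen. The lists of fibroblast, neutrophil and cycling genes were also chosen after seeing the data. Same-numbered libraries of members deviated with a correlation of 0.0547 over 5480 genes in 2 pairs, and no label ties the numbers, so they were not treated as pairs. In simulated counts the test of members against other microglia, over 8922 genes, called 88 of 95 tested genes changed by a log2 of 2. The test of the difference between changes, over 9620 genes, called 23 of 95. The simulated counts had a single spread for all genes and, apart from the changed genes, no difference between libraries but depth. They therefore do not give the power in the real libraries. Promoter sequences came from RefSeq (GRCm38.p6). Figures and shares used Python 3.11.15 with scipy 1.17.1. Some genes that the naming rule covers are not reported here.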

Additional observations from a re-analysis of the deposited data

Results flagged for a closer look

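The change between Rbpj-deleted tumours and healthy brains was called as different in members and in other microglia for 105 genes by edgeR's quasi-likelihood test of the interaction. A positive log2 difference means that members gained more, or lost less, in Rbpj-deleted tumours than other microglia did. It was 7.07 for Stfa2l1, 1.26 for Slc1a3 and 1.10 for Fcrls. Stfa2l1 shares 41.65% of its 31-base stretches with other annotated genes, so its counts are less certain. It was -2.05 for the fatty acid carrier Fabp5 and -2.14 for Lgals1. Chemokine genes had -1.18 for Ccl3, -1.02 for Ccl4 and -4.59 for Cxcl14. Interferon and MHC class I genes had -1.07 for Ifi27l2a, -1.71 for Gbp3, -0.82 for H2-D1 and -0.80 for H2-K1. Cell cycle genes had -4.24 for Birc5, -4.05 for Ccnb2, -3.93 for Tpx2, -3.93 for Rrm2 and -2.46 for Cdk1. After thinning to 3000 UMIs the sign turned for Birc5 (6.0), Ccnb2 (5.27), Tpx2 (6.51), Rrm2 (4.67), Gbp3 (10.14) and Ifi27l2a (0.12), none of them called.

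A further 12 named genes of the same test gave 0 UMIs in one state of one group, and no fold is given for them. Collagen genes are among these, and 4 members of healthy replicate 1 held 268 to 489 UMIs of fibroblast genes. In addition 3 members held 266 to 689 UMIs of neutrophil genes. The values above, those of Stfa2l1 and Cxcl14 included, are from the fit that kept all these barcodes. Without barcodes of fibroblast or neutrophil RNA 44 genes were called, 36 of them among the 105.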

How the results depend on the processing

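The main fits had 4 libraries, but a setting could change which libraries held 10 members. Fits with at least 2 of the 6 genes had 6 libraries, without the activation list 5 and after thinning 3. Those with at least 4 genes had 2 libraries, both of Rbpj-deleted tumours, so these counts differ in libraries as well as in cells. Against other microglia, 1159 genes were called with at least 2 of the 6 genes in the rule and 231 with at least 4. The count was 184 after thinning to 3000 UMIs, 380 at matched depth, and 369 to 524 without each library. Against activated microglia the counts were 130 by DESeq2, 436 with no filter, 152 with at least 2 genes, 23 after thinning, 415 without the activation list, and 88 to 217 without each library. Between Rbpj-deleted tumours and healthy brains they were 314 with no filter, 35 with the stricter lineage cut, 142 with the library division as a term, and 138 to 349 without each library. The fit with the replicate number as a block called 87 genes, 56 of them shared, but the numbers do not pair these samples. For the difference between changes they were 33 by DESeq2, 38 with at least 2 genes, 259 without the activation list, 44 without fibroblast or neutrophil RNA, 52 at matched depth, and 72 to 139 without each library. Rules of at least 4 genes could not be fitted in the last 2 comparisons.

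Without each library the share difference ran between 1.18 and 12.7 points for Rbpj-deleted tumours minus healthy brains, between 0.333 and 11.9 for Rbpj-deleted minus control tumours, and between -0.506 and 2.20 for control tumours minus healthy brains. Against other microglia the log2 value of Ccl12 changed sign (0.21 with at least 4 genes, 0.38 without the activation list). So did those of Plin2 (-0.046 with at least 4 genes) and Klrd1 (0.53 after thinning). Between groups that of Serpinf1 changed sign (0.36 after thinning). The fit with at least 4 genes held no healthy library. In the difference between changes, thinning gave 4.67 for Rrm2, 6.51 for Tpx2, 10.14 for Gbp3, 5.27 for Ccnb2, 0.12 for Ifi27l2a and 6.0 for Birc5. Gbp3 ran between -2.02 and 0.046 without each library, the highest without healthy replicate 1. The cause was not tested. Depth limits what 69 thinned barcodes, 47 of them members before thinning, can show. Healthy replicate 2 and both control tumour libraries held fewer than 10 of them and entered no thinned fit.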
